A study of Homo sapiens with 14 samples.

Results

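The 10 genes described here, 7 cyclins and the 3 CDC25 phosphatases of the cell cycle engine, were followed in RNA of HEK293T cells with and without SETD2. Each gene was taken by its position on the human genome build hg19 and by 1 reference transcript, called the anchor here: CCND1, CCND2, CCND3, CCNE1, CCNA2, CCNB1, CCNB2, CDC25A, CDC25B and CDC25C. The 10 positions held 126 transcript rows, the anchors included, of 204092 rows and 35671 loci in all. The deposited tables list transcripts without gene names, so the names rest on the positions. Coordinates printed for a row are those of its whole locus, which the files merge from overlapping transcripts.

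HEK293T is a cell line from human embryonic kidney. It expresses the large T antigen of SV40, which binds the retinoblastoma protein and p53. The wild type group is HEK293T itself, and the other group is HEK293T with a knockout of SETD2, the methyltransferase that trimethylates lysine 36 of histone H3; how the knockout was made, and whether it is 1 clone, is not stated in the labels. Each group had 3 RNA libraries depleted of ribosomal RNA, and the label of 1 wild type library carries a ChIP protocol. The 8 ChIP samples, 2 for each genotype and each of the marks H3K36me3 and H4K16ac, were not analysed here. Nothing says that the libraries came from separate cultures, so the p-values rest on a spread among libraries that may be technical only.

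Cyclins are the regulatory subunits that switch on cyclin-dependent kinases. D-type cyclins act with CDK4 and CDK6 in G1, cyclin E with CDK2 at entry into S phase, cyclin A2 with CDK2 and CDK1 through S and G2, and cyclins B1 and B2 with CDK1 in mitosis. CDC25 phosphatases remove the inhibitory phosphates that WEE1 and PKMYT1 place on these kinases. The RNA of cyclins A2, B1 and B2 and of CDC25C rises late in the cycle, through promoters with CCAAT boxes and the cell cycle homology element, while CDC25A and CCNE1 are targets of E2F factors. In bulk RNA, a different share of cells at a stage of the cycle and a different amount of RNA per cell cannot be told apart.

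Promoters are shown for the cyclins of G2 and mitosis, whose anchors had similar ratios that did not pass the test, and for both CDC25 genes whose promoters hold a searched motif of the cycle, TTTGAA or TTTGGCGC. The sequences are the 250 bases before a RefSeq start, 5′ to 3′ along the gene, on GRCh38.p14, a build other than that of the RNA tables. Capitals mark CCAAT, the core TTTGAA of the homology element, and the E2F letters TTTGGCGC, on either strand.
CCNB1, chr5:69166900-69167149, plus strand: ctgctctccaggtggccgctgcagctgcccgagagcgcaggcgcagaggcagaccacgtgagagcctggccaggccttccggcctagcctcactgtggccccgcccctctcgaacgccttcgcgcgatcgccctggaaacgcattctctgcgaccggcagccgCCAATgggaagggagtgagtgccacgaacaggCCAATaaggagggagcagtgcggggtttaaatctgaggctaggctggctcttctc
CCNB2, chr15:59104896-59105145, plus strand: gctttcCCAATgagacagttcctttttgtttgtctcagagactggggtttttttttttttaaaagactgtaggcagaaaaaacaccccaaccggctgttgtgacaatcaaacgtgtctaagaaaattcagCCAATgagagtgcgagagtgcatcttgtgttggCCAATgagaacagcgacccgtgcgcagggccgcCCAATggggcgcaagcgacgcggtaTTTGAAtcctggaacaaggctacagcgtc
CCNA2, chr4:121823884-121824133, minus strand: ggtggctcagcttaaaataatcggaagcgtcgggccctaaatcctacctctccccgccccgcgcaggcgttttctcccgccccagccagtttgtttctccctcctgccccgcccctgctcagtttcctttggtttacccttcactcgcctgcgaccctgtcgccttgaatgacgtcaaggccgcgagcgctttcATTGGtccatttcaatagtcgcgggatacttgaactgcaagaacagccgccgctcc
CDC25C, chr5:138331805-138332054, minus strand: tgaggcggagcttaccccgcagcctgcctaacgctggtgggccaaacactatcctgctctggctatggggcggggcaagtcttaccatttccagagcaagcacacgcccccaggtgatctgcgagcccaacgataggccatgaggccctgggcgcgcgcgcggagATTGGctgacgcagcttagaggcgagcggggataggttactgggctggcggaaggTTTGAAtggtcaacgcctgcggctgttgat
CDC25A, chr3:48188418-48188667, minus strand: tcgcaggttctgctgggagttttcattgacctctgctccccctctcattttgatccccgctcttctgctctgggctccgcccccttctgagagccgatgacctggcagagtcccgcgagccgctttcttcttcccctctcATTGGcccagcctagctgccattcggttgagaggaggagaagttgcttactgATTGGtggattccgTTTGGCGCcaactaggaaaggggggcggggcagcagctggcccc

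In the CCNB2 window CCAAT began 244, 120, 87 and 54 bases before the start, and TTTGAA began 29 bases before it. CCNB1 held CCAAT at 87 and 55 bases before the start. CCNA2 held 1 CCAAT, on the opposite strand. Neither the CCNB1 window nor the CCNA2 window held TTTGAA, and other forms of the homology element were not searched. CDC25C has 4 promoter entries, and the one shown, chosen because it holds TTTGAA, has that motif 30 bases before the start. The other CDC25C entries did not hold TTTGAA. CDC25A held 2 CCAAT on the opposite strand and TTTGGCGC 44 bases before the start. The CCNE1 entry, not shown, did not hold TTTGGCGC. Another searched motif, TTTCCCGC, was in no entry of the genes described here. Over 35116 promoter entries, 32.0% of windows of this length held CCAAT on a strand, 13.3% TTTGAA, 0.55% TTTGGCGC and 1.39% TTTCCCGC. A match is a run of letters, not a site shown to be bound. CCND1 and CCND2 had no entry.

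**Figure D1:**
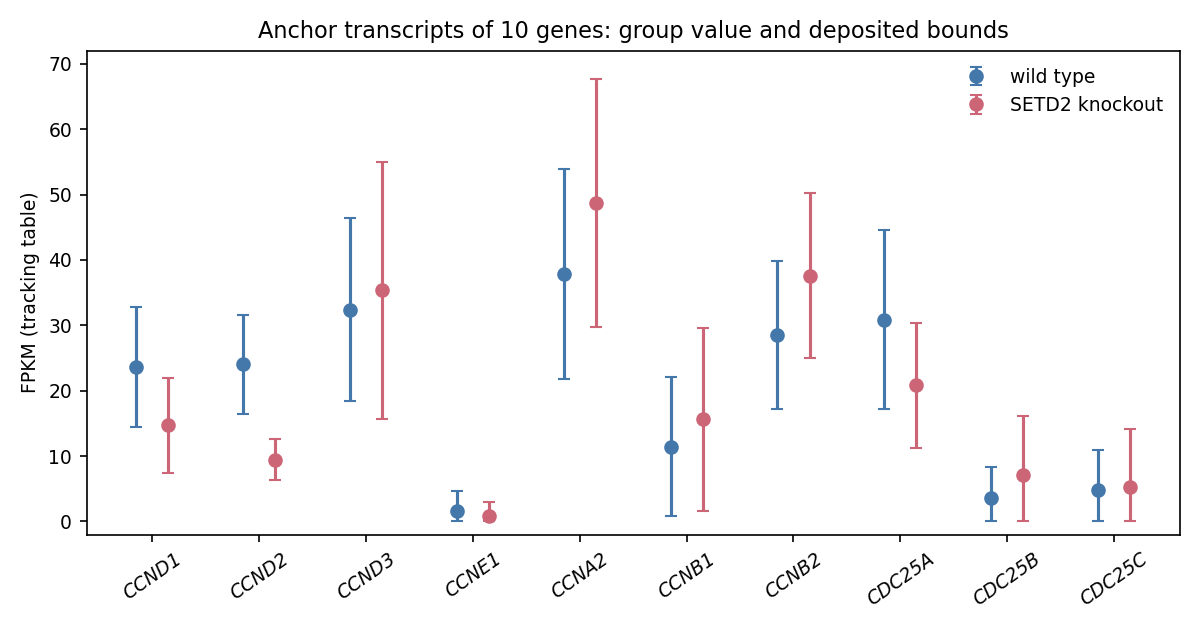
FPKM of the anchor transcript of each gene in the tracking table; points are group values, bars the authors' lower and upper bounds, blue wild type and red SETD2 knockout. The bounds of the groups are apart for CCND2 only, at 6.30 to 12.6 FPKM in knockout cells and 16.4 to 31.6 FPKM in wild type cells.

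Of the 10 anchors, all tested by the authors, CCND2 alone passed the authors' q-value of 0.05, and it fell in the knockout. The other 9 did not pass. Over all 126 rows, 95 were tested and 1 was called, the CCND2 anchor, beside 0.255% of all 85852 tested rows called in either direction and 0.192% called lower. Levels are FPKM, fragments per length of transcript and per total of mapped fragments, listed as 1 value per group and not per library. Where no table is named, values come from the table of tests. The tracking table lists its own value for each row and group, with a lower and an upper bound whose level is not stated. Its knockout values differ from those of the table of tests, so the bounds belong to the tracking values only. The bounds of the groups did not overlap for 1 of the 95 tested rows, again the CCND2 anchor, beside 0.632% of all tested rows.

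Among the D-type cyclins CCND2 fell, while CCND1 and CCND3 did not pass the test. The CCND2 anchor ENST00000261254, at chr12:4357931-4414516, stood at 9.78 FPKM in knockout cells and 24.6 FPKM in wild type cells. That is a 2.52-fold fall, with p = 5e-05 and q = 0.0220 in the authors' deposited table. In the tracking table the knockout value was 9.44 FPKM (6.30 to 12.6) and the wild type value 24.0 FPKM (16.4 to 31.6), a 2.55-fold difference. The knockout range ended below the start of the wild type range.

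This row carried nearly all the signal of its locus, 91.8% of the FPKM sum in knockout cells and 92.9% in wild type cells. The sum over its 6 rows went from 26.5 FPKM in wild type cells to 10.7 FPKM in the knockout. RefSeq places the antisense gene CCND2-AS1 across the start of CCND2, and the other 5 rows of the locus each stayed under 1 FPKM. The strand setting of the counting is not stated in the labels. Of 56292 tested rows that reached 1 FPKM in a group and were above 0 in each, 9.83% had a log2 difference at or under that of CCND2, -1.33, so single rows vary widely at this size of change. Of the 12467 locus sums of at least 1 FPKM, 3.69% had a lower log2 difference than the CCND2 sum.

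CCND1, a D-type cyclin often amplified in cancer, lay lower in the knockout without passing the threshold. Its anchor ENST00000227507, at chr11:69455855-69490184, stood at 15.1 FPKM in knockout cells and 24.2 FPKM in wild type cells, a wild type to knockout ratio of 1.61. The authors' deposited table gives p = 0.0134 and q = 0.991. The bounds in the tracking table were 7.48 to 21.9 FPKM and 14.5 to 32.8 FPKM, and overlapped. The wild type levels of the CCND1 and CCND2 anchors were close, and in the knockout CCND1 was the higher of them.

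The CCND1 locus held 24 rows, of which the anchor took 18.8% of the sum in knockout cells and 24.0% in wild type cells. Of the 18 tested rows, 12 stood higher in the knockout and 6, the anchor among them, lower. By the tracking values 9 stood higher and 9 lower. The rows are not divided among genes in the files, so the sum may hold RNA of genes other than CCND1. The sum went from 101.1 to 80.2 FPKM, a log2 difference of -0.33, and in the tracking table it was -0.07. A second row, ENST00000569105, stood at 7.83 FPKM in knockout cells and 21.8 FPKM in wild type cells in the test table, but at 18.0 FPKM and 21.3 FPKM in the tracking table. Its lower bound was 0 in both groups. The lower CCND1 value was thus found in the anchor in both tables, and in the locus sum it was small in the tracking table.

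CCND3, a D-type cyclin needed in developing lymphocytes, had the highest of the D-type anchors in both groups. Its anchor ENST00000372991, at chr6:41902671-42018095, stood at 37.6 FPKM in knockout cells and 33.2 FPKM in wild type cells (p = 0.481, q = 0.991 in the authors' deposited table). The tracking bounds, 15.7 to 55.0 FPKM and 18.4 to 46.4 FPKM, covered nearly the same range. RefSeq lists a noncoding gene and a pseudogene as overlapping CCND3, and the rows are not divided among them in the files. Of the 14 tested rows of the locus, 5 stood higher in the knockout, the anchor among them, and 9 lower. Among the 23 rows of the locus, ENST00000506555 was listed at 25.4 FPKM in knockout cells and 4.82 FPKM in wild type cells, with p = 0.355 in the authors' deposited table. Its tracking bounds were 0 to 63.0 FPKM and 0 to 24.3 FPKM, so this row is not measured well enough to order the groups.

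Summed over the anchors, which FPKM puts on a scale per length, D-type cyclin RNA stood at 62.4 FPKM in knockout cells and 82.0 FPKM in wild type cells. CCND2 made up 15.7% of that sum in knockout cells and 30.0% in wild type cells. CCND3 made up 60.2% and 40.5%, and CCND1 24.1% and 29.5%. In the tracking table the CCND2 shares were 15.9% and 30.0%. These shares have no test, since the files hold 1 value per group, and they depend on the rows used. With locus sums in place of anchors, a comparison chosen after the values were seen, CCND2 made up 6.30% in knockout cells and 13.6% in wild type cells. The CCND1 locus then made up 47.4% and 51.7%, and the CCND3 locus 46.3% and 34.7%. By this measure the CCND1 locus, not the CCND3 locus, was the highest in both groups. Rows of a locus carry no gene names, so these sums may hold RNA of genes other than the cyclins. The CCND2 share was the lower in the knockout either way.

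CCNE1, the partner of CDK2 at the start of S phase, was the lowest anchor. ENST00000262643, at chr19:30302805-30315215, stood at 1.31 FPKM in knockout cells and 1.66 FPKM in wild type cells, with bounds that started at 0 in both groups. The largest row of the locus was ENST00000444983, at 10.4 FPKM in knockout cells and 9.64 FPKM in wild type cells. Its tracking bounds, 2.04 to 17.3 FPKM and 4.48 to 14.4 FPKM, overlapped over most of their length. The locus sum was 22.7 FPKM in knockout cells and 20.8 FPKM in wild type cells. Thus the anchor lay lower in knockout cells and the sum higher, and neither row passed, with p = 0.779 for the anchor and p = 0.793 for ENST00000444983 in the authors' deposited table.

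The anchors of cyclins A2, B1 and B2 all stood higher in the knockout by nearly the same ratio, and none passed the threshold. CCNA2, whose anchor ENST00000274026 lies at chr4:122722472-122745087, stood at 51.7 FPKM in knockout cells and 38.8 FPKM in wild type cells, a knockout to wild type ratio of 1.33. CCNB2, at chr15:59397277-59425449, stood at 38.7 FPKM and 29.2 FPKM in ENST00000288207, a ratio of 1.32. CCNB1, at chr5:68462837-68474072, stood at 15.6 FPKM and 11.7 FPKM in ENST00000256442, a ratio of 1.33. Together these 3 anchors summed to 106.0 FPKM in knockout cells and 79.6 FPKM in wild type cells.

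In the authors' deposited table the p-values of these anchors were 0.101 for CCNA2, 0.0853 for CCNB2 and 0.475 for CCNB1, each with q = 0.991. The tracking bounds overlapped for each of them. Knockout first, they were 29.8 to 67.7 FPKM and 21.8 to 53.8 FPKM for CCNA2. For CCNB2 they were 24.9 to 50.2 FPKM and 17.2 to 39.8 FPKM. For CCNB1 they were 1.63 to 29.7 FPKM and 0.798 to 22.0 FPKM, which cover differences in either direction. In the tracking table the ratios were 1.29, 1.32 and 1.37 in the same order. Loci of at least 1 FPKM on chromosomes 4, 15 and 5 had median log2 differences of 0.18, 0.13 and 0.17, against anchor differences of 0.42, 0.41 and 0.41 and locus sum differences of 0.26, 0.13 and 0.51. Within 5 Mb of CCNA2, 30 other loci had a median of 0.29, which is above the CCNA2 sum. Around CCNB2 36 loci had a median of 0.09, and around CCNB1 40 loci had one of 0.07. The part that the neighbourhood plays in these differences was not tested.

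The locus sums of these genes had less similar ratios than the anchors. RefSeq lists a small nucleolar RNA gene as overlapping CCNB1, and the rows of the locus are not divided between them in the files. At CCNB1 the sum was 393.0 FPKM in knockout cells and 275.4 FPKM in wild type cells, and the anchor held only 3.96% and 4.24% of it. The row that held most, ENST00000506572, stood at 150.2 FPKM in knockout cells and 97.4 FPKM in wild type cells, a ratio of 1.54 with p = 0.0266 and q = 0.991 in the authors' deposited table. Its tracking bounds were 91.2 to 208.8 FPKM and 49.2 to 140.8 FPKM. All 7 tested rows of CCNB1 stood higher in the knockout in the test table; the rows share reads, so this is not 7 separate measurements. Of the 7, 5 stood higher in the tracking table too, and ENST00000459230 was lower, at 54.9 FPKM against 65.0 FPKM. The wild type bounds of that row ran from 0 to 775.7 FPKM, so it is not measured well enough to order the groups.

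At CCNB2 the anchor held 99.998% of the sum in knockout cells and 82.4% in wild type cells, where 3 minor rows of 1.47 to 2.95 FPKM added to it. The sums were therefore closer than the anchors, at 38.7 FPKM in knockout cells and 35.4 FPKM in wild type cells. At CCNA2 the merged locus also takes in EXOSC9, a subunit of the RNA exosome that RefSeq lists as overlapping CCNA2, and the tables do not say which of its 13 rows belong to which gene. The second row there, ENST00000243498, stood at 20.4 FPKM in knockout cells and 32.6 FPKM in wild type cells, opposite to the anchor (p = 0.183 in the authors' deposited table).

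**Figure D2:**
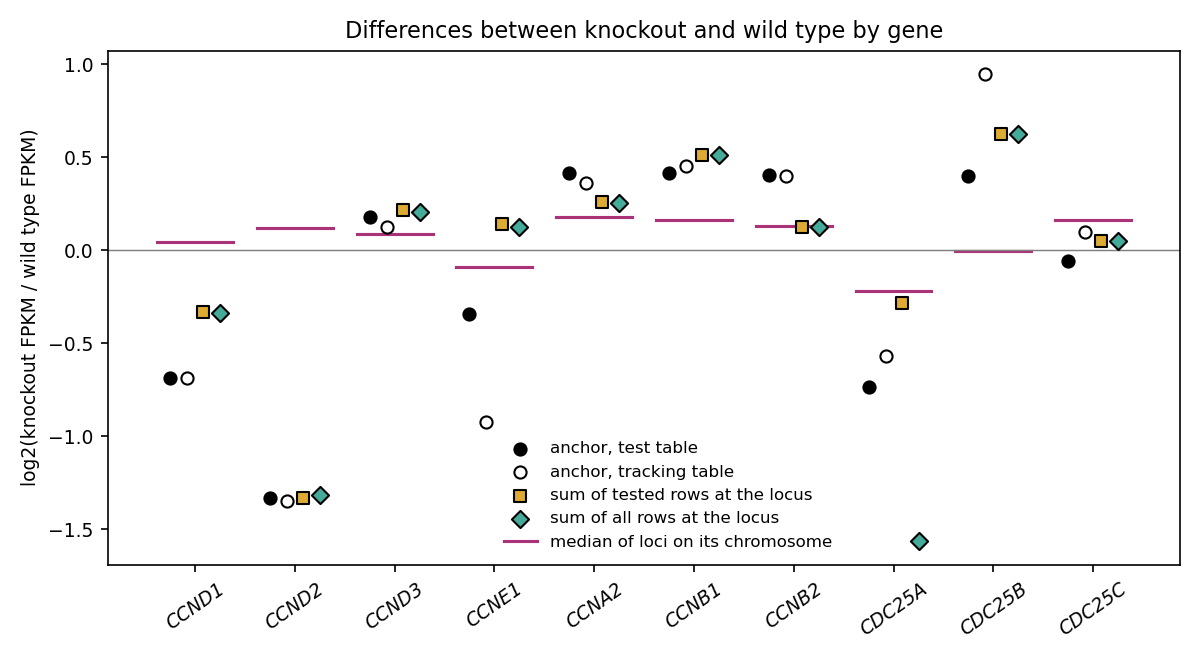
Log2 ratio of knockout to wild type FPKM for each gene: anchor in the test table (filled circle), anchor in the tracking table (open circle), sum of tested rows (square), sum of all rows of the locus (diamond), and the median of all expressed loci on its chromosome (line). CCND2 lies near -1.3 by all 4 measures, while CDC25A ranges from -0.28 to -1.56 and CCNE1 lies on both sides of 0.

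No row of the 3 CDC25 phosphatases passed the test, and their anchors had no common direction. CDC25A, which acts on CDK2 at entry into S phase and is degraded after DNA damage, stood lower in the knockout. Its anchor ENST00000302506, at chr3:48198636-48229892, stood at 19.0 FPKM in knockout cells and 31.6 FPKM in wild type cells, a wild type to knockout ratio of 1.66. In the authors' deposited table p = 0.0114 and q = 0.991, so it did not pass. The tracking bounds, 11.3 to 30.4 FPKM and 17.1 to 44.6 FPKM, overlapped, and the ratio there was 1.48.

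The second tested row of CDC25A, ENST00000351231, stood at 15.7 FPKM in knockout cells and 17.0 FPKM in wild type cells. The anchor thus held 39.8% of the tested signal of the locus in knockout cells and 54.4% in wild type cells, with 44.5% for the knockout in the tracking table. Over all 8 rows the locus sum was 47.7 FPKM in knockout cells and 141.1 FPKM in wild type cells. Most of that gap was 1 row the authors had not tested, ENST00000517247, listed at 83.0 FPKM in wild type cells and at 0 in the knockout. RefSeq lists 3 pseudogenes inside CDC25A, and whether this row is one of them is not given in the files. Without untested rows the sums were 47.7 FPKM and 58.1 FPKM, a wild type to knockout ratio of 1.22.

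Loci around CDC25A were also lower in the knockout. The 664 loci of at least 1 FPKM on chromosome 3 had a median log2 difference of -0.22. Within 5 Mb of the CDC25A position, 104 other loci had a median of -0.32, and 74.0% of them lay below 0. The log2 difference of the anchor was -0.73 and that of the tested rows summed was -0.28. The medians of the neighbours are over sums of all rows, tested or not, and by that measure the CDC25A locus lay at -1.56. The sum of tested rows, a choice made after the values were seen, is not the same measure as those medians. The part of the neighbourhood in the CDC25A difference was not tested. Around CCND2, by contrast, 61 loci had a median of 0.05, and around CCND1 126 loci had a median of 0.02.

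CDC25B, a phosphatase that acts at the centrosome before mitosis, stood higher in the knockout. Its anchor ENST00000245960, at chr20:3767578-3786762, was minor, at 4.93 FPKM in knockout cells and 3.74 FPKM in wild type cells (p = 0.624 and q = 0.991 in the authors' deposited table). The main row of the locus was ENST00000439880, at 78.0 FPKM in knockout cells and 50.7 FPKM in wild type cells, a knockout to wild type ratio of 1.54. That row had the second lowest p of all 95 tested rows, p = 0.0052, and q = 0.706 in the authors' deposited table. Its tracking bounds were 54.4 to 110.9 FPKM and 31.3 to 67.7 FPKM, and overlapped.

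The sum over the 9 rows of CDC25B was 103.2 FPKM in knockout cells and 67.0 FPKM in wild type cells, and all 7 tested rows stood higher in the knockout, as did 5 of them in the tracking table. In that table the sum had a log2 difference of 0.68, against 0.62 in the test table. The anchor itself was less stable, with a ratio of 1.32 in the test table and 1.93 in the tracking table.

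CDC25C, which acts on CDK1 with cyclin B at entry into mitosis, was close in both groups. Its anchor ENST00000323760, at chr5:137620954-137685416, stood at 4.79 FPKM in knockout cells and 4.99 FPKM in wild type cells (p = 0.958 in the authors' deposited table). Bounds that ran from 0 to 14.1 FPKM and from 0 to 11.0 FPKM cover differences in either direction. RefSeq lists FAM53C and a noncoding gene as overlapping CDC25C, and the 23 rows of the merged locus are not divided among them in the files. The anchor held 5.20% of the locus sum in knockout cells and 5.59% in wild type cells. The sum was 92.2 FPKM and 89.1 FPKM.

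**Figure D3:**
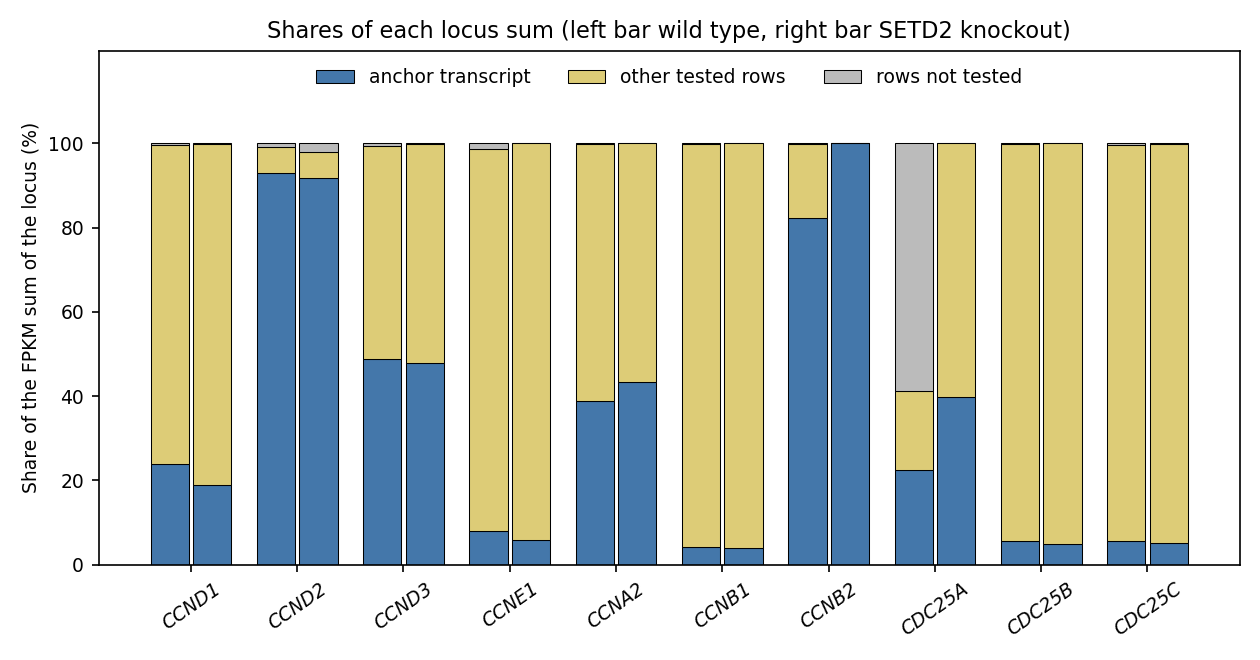
Share of the FPKM sum of each locus, in percent, held by the anchor (blue), by other tested rows (yellow) and by rows not tested (grey); the left bar of each pair is wild type and the right bar SETD2 knockout. The anchor holds over 90% in both groups at CCND2 only, and the grey part of the wild type bar at CDC25A is nearly all 1 untested row of 83.0 FPKM.

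As a list, the anchors showed no common direction. In the knockout 5 stood higher and 5 lower, and 6 stood higher by the values of the tracking table. The sums over all rows of a locus were higher in the knockout for 7 of the 10 genes. By that same measure 56.1% of all 12467 loci of at least 1 FPKM were higher. The median log2 difference of the anchors was 0.06 and that of all 56292 tested rows that reached 1 FPKM in a group and were above 0 in each was 0.11. Their lower and upper quartiles were -0.47 and 0.73, and this range holds 7 of the 10 anchors. CCND2, CCND1 and CDC25A lay below it.

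By family, 2 of the 3 D-type anchors stood lower and the E cyclin anchor lower. All 3 anchors of cyclins A2, B1 and B2 stood higher, and the CDC25 anchors 1 higher and 2 lower. Of these anchors only CCND2, which fell, passed the test. The families are not a pattern by stage of the cycle. The CCNE1 locus sum was higher in the knockout, at 22.7 FPKM against 20.8 FPKM. The CDC25C anchor, of a gene whose RNA also rises late in the cycle, had a log2 difference of -0.06. Among the 95 tested rows 5 had an unadjusted p under 0.05, or 5.26%, beside 2.38% of all tested rows. They were the anchors of CCND2, CCND1 and CDC25A, lower in the knockout, and the main rows of CCNB1 and CDC25B, higher in it. Whether these shares differ was not tested, since rows of a locus share reads.

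**Figure D4:**
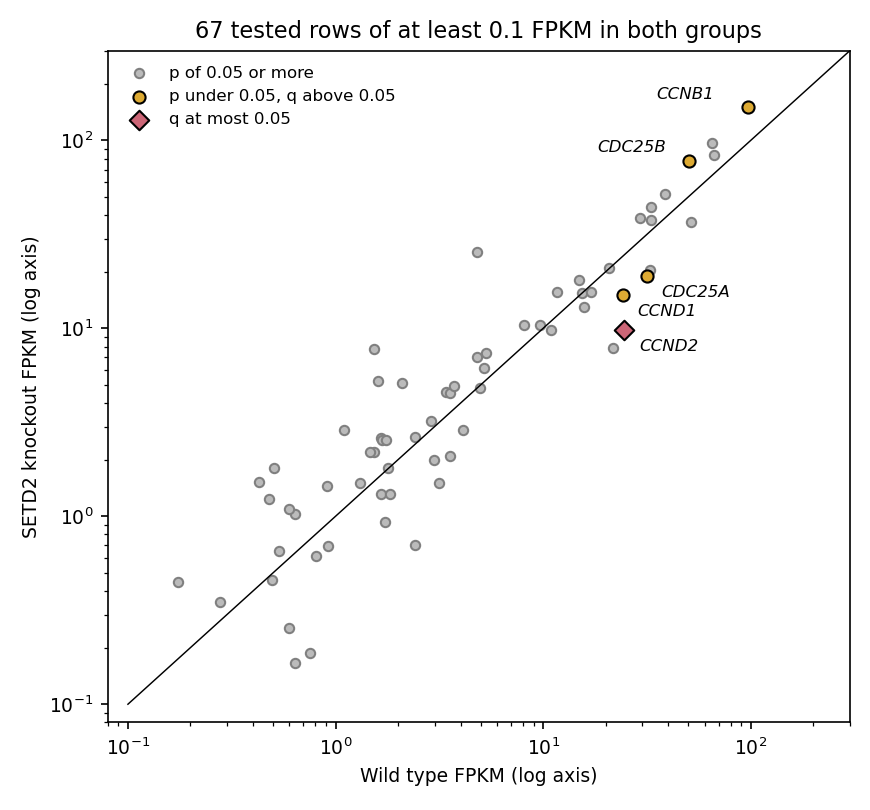
Wild type FPKM against SETD2 knockout FPKM, both on log axes, for the 67 tested rows at the 10 positions with at least 0.1 FPKM in both groups; the line marks equal values. The only row past a q-value of 0.05 (diamond) is the CCND2 anchor at 24.6 and 9.78 FPKM, and the scatter about the line widens below 10 FPKM.

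The knockout values differed between the deposited tables more than the wild type values did. The ratio of the tracking value to the test-table value ran from 0.652 for CCNE1 to 1.43 for CDC25B over the knockout anchors, and from 0.976 to 0.977 over the wild type anchors. For CCND2 it was 0.965 in the knockout. The level of SETD2 and the other 41 cell cycle genes listed for comparison were not analysed here, since 0 of the 204092 transcript IDs matched the gene tables used.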

How the data were processed

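The labels list 3 wild type and 3 SETD2 knockout RNA libraries, which were compared through the authors' group values. How many of these libraries entered each deposited table is not known. The submitters' processing notes name TopHat, Cuffdiff, Bowtie 1.1.2 and hg19, without role; no source used here states the annotation. The authors deposited FPKM per transcript and group, with bounds in a tracking table, and a table of tests that holds p-value, q-value, a test statistic (a score of no set range) and a log2 fold that divides wild type by knockout, per the file headers. The depth of each library is unknown. Log2 differences printed here are knockout minus wild type. The deposited fold and the recomputed one differed by at most 1.43e-05 over tested rows of at least 0.1 FPKM in both groups. No test was added, because no value per library is held.

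Rows were taken whose locus holds the position of a gene, and FPKM were summed per locus. Starts are 1-based. Background loci reached 1 FPKM in a group and were above 0 in each, without loci of status HIDATA (24 rows) or FAIL (26 rows). Named were the 10 anchors, up to 3 rows a locus of the highest FPKM from 1 FPKM up, the row with the lowest p at each locus, and every row at a q-value of 0.05 or under. The members, lists and rules were chosen with earlier results of these data known. The alternatives were another call threshold, the tracking table, locus sums, scaling, centring and pseudocounts. The scripts were tested on simulated data. Python 3.11.15, pandas 2.3.3, numpy 2.4.6 and matplotlib 3.10.9 were used.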

Additional observations from a re-analysis of the deposited data

How the results depend on the processing

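At an unadjusted p under 0.05 in place of the q-value, 5 rows were called in place of 1, and at a q-value under 0.01 there were 0 (Cuffdiff values of the authors' deposited table), since 0.0220 is the smallest q the table holds. The sum over all rows of the CDC25A locus had a log2 difference of -1.56 against -0.73 for the anchor; with untested rows left out, a choice made after the values were seen, it was -0.28. Locus sums in place of anchors moved the D-type shares of CCND1 and CCND2 in both groups, as printed beside them. The remaining 84 of 91 alternative values stayed within the spread set for them, for single genes the authors' bounds, which are wide for low rows. CCND2 kept its direction in the tracking table and in locus sums, though its anchor makes up most of its locus sum. Centring on all loci or on its chromosome gave it log2 differences of -1.39 and -1.45. A pseudocount of 1 FPKM gave -1.25, but adding the same amount to both groups cannot turn a direction. The sign turned for CDC25C in the tracking table, in both sums and on scaling to equal FPKM totals, and for CCNE1 in both sums. No paired analysis was possible because the files hold 1 value per group, and leaving out a library was not run for the same reason.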

Other observations

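Rows listed at 0 in a single group of the table of tests were spread over the positions. Of the 95 tested rows, 12 were at 0 in knockout cells and 9 in wild type cells. Some were above 0 in the tracking table, such as ENST00000514382 at the CCND3 locus, at 1.05 FPKM in knockout cells. The share of such rows over all tested rows was not counted. None of these 21 rows passed the authors' q-value of 0.05. The highest of them was ENST00000511276 at the CDC25C locus, at 6.004 FPKM in the knockout. It was named after its value was seen.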
